A study of Mus musculus with 15 samples.

Results

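The genes described here are 5 kinases of the Src family, Lyn, Blk, Fyn, Lck and Fgr, and Csk, the kinase that holds that family in check. They were taken by gene symbol from a table of mouse RNA-seq values, 6 of 51912 gene identifiers, and all 6 passed the filter on low counts that left 15692 genes to test. The libraries came from wild-type mouse B cells, with the treatment given as none and no strain given in the sources used here. The cells had been cultured on 40LB feeder cells with 100 ng/ml IL-4 for 6 days. The D6 group is the unsorted culture at day 6. For the other 4 groups the B cells left the feeders and spent 2 more days in medium with no stimulus before they were sorted as IgE or IgG1 cells, each as plasma cells (PC) or as the population labelled iGC. Each of the 5 groups had 3 libraries, called biological replicates in the labels, which do not say what a replicate number shares. All groups began in the same kind of culture, so every one of them had been exposed to IL-4 and to feeder cells, and feeder cells could still be present in D6.

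Src family kinases are membrane-bound tyrosine kinases that carry out the first phosphorylation steps behind many surface receptors. In B cells, Lyn, Blk and Fyn phosphorylate the tyrosine motifs of the B cell receptor chains, and Lyn also phosphorylates the inhibitory motifs of receptors such as CD22 and CD72. Each of these kinases has a tyrosine near its tail. When Csk phosphorylates that tyrosine the kinase folds shut, and when phosphatases such as CD45 (Ptprc) remove the phosphate the kinase can open. RNA levels, which were measured here, give no direct reading of that switch.

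The shared and differing parts of the 6 proteins can be read from the ends of their coding sequences, which are shown because membrane anchoring and the Csk target lie there. The first 30 coding bases of the principal GENCODE transcript of each gene (GRCm38) are given 5′ to 3′, with the 2 codons after the start codon in capitals. The first of these encodes glycine, the residue to which myristate is attached, in 5 of the 5 kinases. The next encodes cysteine, a palmitate site, in 4 of them, Blk being the one without it. Csk, which has no such lipid anchor, starts differently.
Lyn: atgGGATGTattaaatcaaaaaggaaagac
Blk: atgGGGCTGctgagcagcaagaggcaggtc
Fyn: atgGGCTGTgtgcaatgtaaggataaagaa
Lck: atgGGCTGTgtctgcagctcaaaccctgaa
Fgr: atgGGCTGTgtgttctgcaagaagttggag
Csk: atgTCGGCAatacaggccgcctggccatcc

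The last 45 coding bases, stop codon included, hold the tail tyrosine of the kinases that Csk phosphorylates, and its codon is in capitals. In Lyn, Blk and Lck 4 codons lie between that tyrosine and the stop, and in Fyn and Fgr 6 do. Csk has no tyrosine codon in this stretch: its last one lies 34 codons before the stop, so its tail is printed without capitals.
Lyn: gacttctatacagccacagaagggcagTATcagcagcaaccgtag
Blk: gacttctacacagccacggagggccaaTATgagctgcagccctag
Fyn: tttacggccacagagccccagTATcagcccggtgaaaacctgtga
Lck: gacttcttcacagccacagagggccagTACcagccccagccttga
Fgr: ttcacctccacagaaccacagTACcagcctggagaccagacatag
Csk: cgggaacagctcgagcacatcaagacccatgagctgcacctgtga

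On GRCm38, Lyn lies at chr4:3678115-3813122 on the plus strand, Blk at chr14:63372836-63417037 on the minus strand and Fyn at chr10:39368855-39565381 on the plus strand. Lck lies at chr4:129548344-129573641 on the minus strand, Fgr at chr4:132974095-133001910 on the plus strand and Csk at chr9:57626646-57653631 on the minus strand. The values count reads over the whole gene. Genes overlapping Lyn, Fyn and Lck in the annotation had at most 14 counts in any library. Lyn was the one member with fractional counts, in 5 libraries, as arise when a read fits more than 1 gene.

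Libraries held 17.7 M to 54.1 M counts. The immunoglobulin share of all counts was 20.4% ± 0.949 for IgE PC libraries, 17.7% ± 3.51 for IgG1 PC libraries (SD, n = 3) and 1.42% to 1.61% for the other group means. Levels of a gene between groups are therefore given as CPM, counts scaled by a TMM-adjusted library total, which sets each library's total by the bulk of its genes, and levels between genes as deposited TPM, which allow for transcript length. Summed B cell markers were present in every library, at 1773 TPM or more. Summed plasma cell markers were at 6384 to 11006 TPM in the PC libraries and at most 680 TPM in all others, and mast cell and basophil markers summed to at most 0.88 TPM. The first IgG1 PC library stood apart from the other two: its immunoglobulin share was 21.7% against 15.3% and 16.1%, its summed germinal centre markers were 60.95 TPM against 102.5 and 89.8, and its summed B cell markers were 2454 TPM against 2861 and 2836.

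IgE plasma cells and IgG1 plasma cells differed in the make-up of their Src family kinase RNA. Fyn was 2.22-fold higher in IgE PC, whereas Lck was 12.0-fold lower, Fgr 3.21-fold lower, Blk 2.04-fold lower and Lyn 1.15-fold lower. Csk was 1.13-fold lower, the smallest of the 6 differences. All 6 members were called at an adjusted p under 0.05 (edgeR quasi-likelihood test, Benjamini-Hochberg over all genes tested), 1 higher and 5 lower. In this comparison 58.1% of all genes tested were called, 27.4% higher and 30.7% lower, so being called sets no member apart. The median difference of the 6 members was -0.61 on the log2 scale, beside -0.05 for all genes tested.

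**Figure D1:**
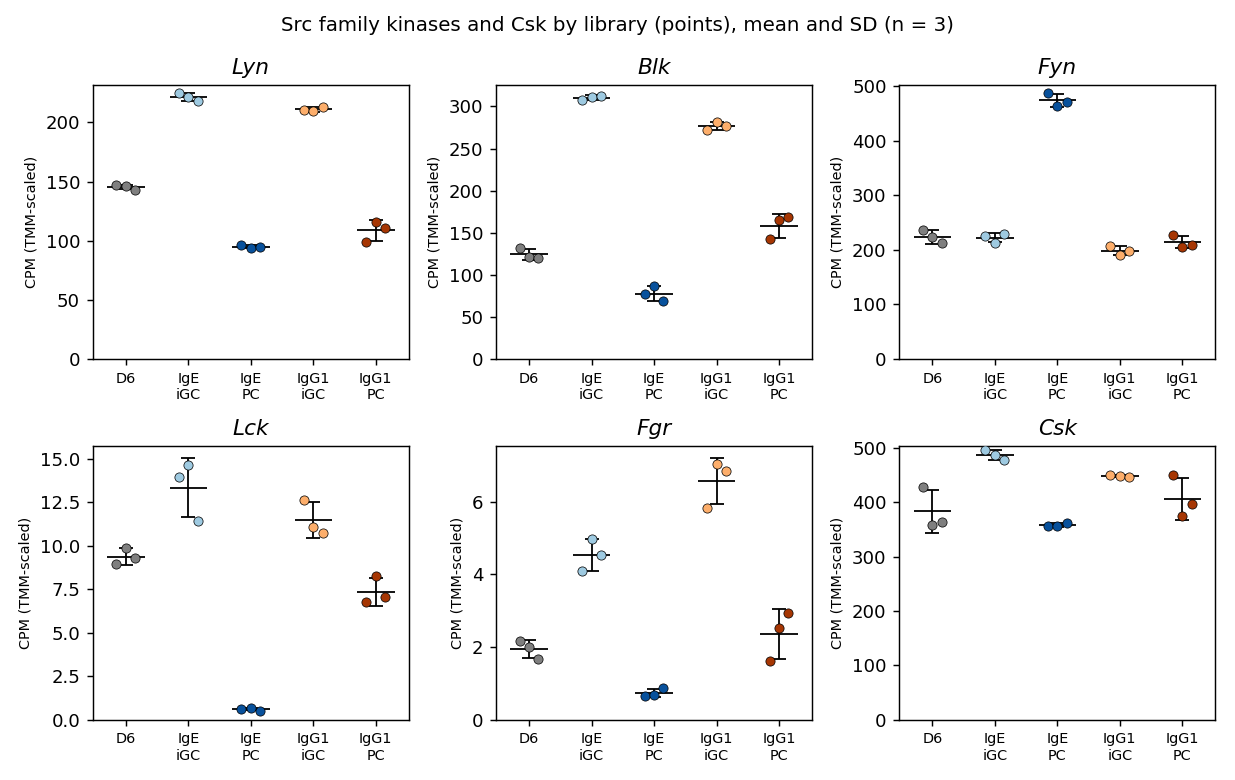
CPM values (TMM-scaled, linear axes from 0) of the 6 genes in each of the 15 libraries. Points are libraries, the horizontal line is the group mean and the bars are the SD (n = 3); Fyn stands at 464 to 487 CPM in IgE PC and at 191 to 236 CPM in all other libraries, while Lck stands below 1 CPM in IgE PC and at 6.75 CPM or more elsewhere.

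Lyn, the kinase that serves both activating and inhibitory receptors of B cells, was highest in the iGC groups and lowest in plasma cells. It was at 225, 222 and 218 CPM in IgE iGC and at 210.2, 209.7 and 213 CPM in IgG1 iGC. It was at 147, 146 and 143 CPM in D6, at 98.9, 116 and 111 CPM in IgG1 PC and at 96.3, 93.4 and 94.8 CPM in IgE PC. The order was the same in mean TPM, with 104.7 ± 3.05 for IgE iGC at the top and 26.8 ± 1.04 for IgE PC at the bottom (SD, n = 3), and no 2 groups overlapped in CPM. From iGC to PC, Lyn fell in IgE by 1.22 on the log2 scale (SE 0.05, edgeR adjusted p = 1.88e-11) and in IgG1 by 0.96 (SE 0.05, adjusted p = 8.81e-10). The fall was larger in IgE by 0.27 (SE 0.08, adjusted p of the interaction 0.0107). The direct PC difference of -0.20 (SE 0.05, adjusted p = 0.00584) was lost when only the 2 PC groups entered the fit (-0.21, adjusted p = 0.0771).

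Blk, a kinase largely restricted to the B lineage, had the widest range of the 3 abundant kinases as a fold. It was at 308, 311 and 313 CPM in IgE iGC and at 272, 282 and 277 CPM in IgG1 iGC. In plasma cells it was at 142, 165 and 169 CPM in IgG1 and at 76.9, 87.3 and 69.1 CPM in IgE, and D6 lay between these at 132, 121 and 119 CPM. The 5 groups did not overlap, and the first IgG1 PC library was the lowest of its group. In the step to PC, Blk fell 3.99-fold in IgE (log2 -1.997, SE 0.08, edgeR adjusted p = 6.94e-12) and 1.75-fold in IgG1 (log2 -0.80, SE 0.08, adjusted p = 4.96e-07). The interaction was -1.19 (SE 0.11, adjusted p = 1.18e-06), that is, a larger fall in IgE.

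Fyn, a broadly expressed kinase that also acts behind the T cell receptor and integrins, was the only member higher in IgE PC than in the other 4 groups. It was at 487, 464 and 471 CPM in IgE PC and at 226, 206 and 209 CPM in IgG1 PC. It was at 225, 213 and 229 CPM in IgE iGC, at 207, 191 and 197 CPM in IgG1 iGC and at 236, 223 and 212 CPM in D6. Every IgE PC library lay above all other libraries, and the other 4 groups overlapped in part. From iGC to PC, Fyn rose 2.13-fold in IgE (log2 1.09, SE 0.06, edgeR adjusted p = 1.49e-10), and the change in IgG1 of 0.11 (SE 0.06, adjusted p = 0.125) did not pass the test. The interaction was 0.99 (SE 0.08, adjusted p = 4.01e-07).

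The size of the Fyn rise depended on the scaling. With libraries scaled by their total counts, which include the immunoglobulin counts, the IgE step was 0.62 on the log2 scale (SE 0.05, edgeR adjusted p = 3.99e-08) and the PC difference 0.90 (SE 0.05, adjusted p = 5.03e-09), both still called. Under the same scaling the IgG1 step turned to -0.13 (adjusted p = 0.0446). In TPM, which is also relative to all transcripts, Fyn was at 177, 169 and 163 in IgE PC, against 137, 139 and 148 in IgE iGC and 84.4, 92.8 and 92.0 in IgG1 PC. On each scale the IgE PC libraries were the highest of the 15. The scaling moved all genes together: the median of all genes tested in the IgE step was -0.08 by TMM and -0.55 by total counts, and in the PC comparison 4303 genes were higher and 4816 lower by TMM, against 2272 and 7265 by total counts.

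Lck, the kinase of the T cell receptor, had the largest change of the 6 members. It was at 13.9, 14.6 and 11.4 CPM in IgE iGC, at 12.6, 11.1 and 10.7 CPM in IgG1 iGC and at 8.92, 9.88 and 9.26 CPM in D6. It was at 6.75, 8.26 and 7.06 CPM in IgG1 PC but at 0.639, 0.663 and 0.523 CPM in IgE PC, where 22, 21 and 15 counts were recorded. All 3 IgE PC libraries lay below 1 CPM, and every other library lay at 6.75 CPM or more. Between iGC and PC, Lck fell 21.8-fold in IgE (log2 -4.45, SE 0.15, edgeR adjusted p = 8.52e-13) and 1.56-fold in IgG1 (log2 -0.64, SE 0.11, adjusted p = 1.51e-04). The interaction of -3.81 (SE 0.19, adjusted p = 6.88e-09) ranked 8 by p among all genes tested.

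Lck and Fyn are both known from T cells, so T cell markers were read beside them. Of 12 markers, 4 passed the count filter (Thy1, Trac, Lat and Cd28). Of the receptor chains, Cd3e was at 0.02 TPM or less, Cd3d at 0.21 TPM or less and Cd3g at 0.43 TPM or less in every library, while Trac was at 1.12 to 3.81 TPM in every library. Lck was at 9.28 to 12.9 TPM in the D6 and iGC libraries. Summed T cell markers were at 75.4 to 83.7 TPM in D6, of which Thy1 made 64.4 TPM on average, and at 17.2 to 25.0 TPM in the 4 sorted groups. The sum was 17.5 to 18.7 TPM in IgE PC and 18.3 to 22.8 TPM in IgG1 PC, but its parts went in opposite directions. Thy1 differed as Lck did between the PC groups and in the IgE step. It was 4.18-fold lower in IgE PC than in IgG1 PC (edgeR adjusted p = 7.00e-10) and fell 3.42-fold in the IgE step. Unlike Lck, Thy1 did not fall in the IgG1 step, where it changed by 0.08 (adjusted p = 0.479). Thy1 was also lower in both iGC groups than in D6, whereas Lck was higher in both iGC groups than in D6. Cd28 differed as Fyn did between the PC groups: it was 3.60-fold higher in IgE PC (adjusted p = 7.48e-08), with 13.55 TPM there on average. Unlike Fyn, it rose in both steps, 70.6-fold in IgE (adjusted p = 1.25e-12) and 20.2-fold in IgG1 (adjusted p = 1.30e-10). Lat fell in both steps, 2.96-fold in IgE and 1.86-fold in IgG1, and Trac rose 1.72-fold in the IgG1 step (adjusted p = 0.00992). Their part in the Lck and Fyn results was not tested.

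Fgr, a kinase best known from myeloid cells, was the least abundant of the 5 kinases by mean TPM. Among the members, only Fgr was higher in IgG1 iGC than in IgE iGC by mean CPM. It was at 5.84, 7.03 and 6.84 CPM in IgG1 iGC and at 4.09, 4.97 and 4.55 CPM in IgE iGC. It was at 1.61, 2.53 and 2.94 CPM in IgG1 PC, at 2.18, 1.99 and 1.67 CPM in D6 and at 0.668, 0.695 and 0.871 CPM in IgE PC, from 22 to 25 counts. IgG1 PC and D6 overlapped, and the other groups did not. From iGC to PC, Fgr fell 6.09-fold in IgE (log2 -2.61, SE 0.22, edgeR adjusted p = 3.50e-08) and 2.75-fold in IgG1 (log2 -1.46, SE 0.19, adjusted p = 8.99e-06), with an interaction of -1.15 (SE 0.29, adjusted p = 0.00475).

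Summed myeloid markers moved with Fgr in the sorted groups. Their sum was 2.83 to 4.04 TPM in IgG1 iGC, 1.90 to 3.02 in IgE iGC, 1.01 to 2.00 in IgG1 PC and 0.26 to 0.28 in IgE PC, and 3 of 10 markers passed the count filter. In D6 the sum was 1.96 to 2.37 TPM and overlapped that of IgE iGC, although Fgr was 2.32-fold higher in IgE iGC. Itgam, an integrin chain, made most of it in the iGC groups (2.36 TPM on average in IgG1 iGC). Adgre1, which encodes the macrophage antigen F4/80, differed as Fgr did between the isotypes and in the IgE step. It was 11.5-fold lower in IgE PC than in IgG1 PC (edgeR adjusted p = 1.09e-05). In IgE iGC it was 2.68-fold lower than in IgG1 iGC (adjusted p = 0.0245). It fell 7.38-fold in the IgE step, with only 0.23 to 0.36 TPM in IgE iGC and 0.01 to 0.05 TPM in IgE PC. In D6 Adgre1 was at 0.92 to 1.08 TPM, above IgE iGC, whereas Fgr was lower in D6 than in IgE iGC. Lyz2 was at 0.89 TPM or less, and Csf1r, Cd14 and S100a8 were at 0.15 TPM or less, in every library. Lyz2 did not share the whole pattern: its log2 difference was 1.75 for IgE iGC over IgG1 iGC (edgeR adjusted p = 0.272). It was 0.89 in the IgG1 step (adjusted p = 0.340) and -2.73 in the IgE step (adjusted p = 0.0122). Their part in the Fgr result was not tested.

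Csk, the kinase that phosphorylates the tail tyrosine of all 5 kinases, varied least among the members. It was at 497, 487 and 477 CPM in IgE iGC and at 451, 448 and 447 CPM in IgG1 iGC. It was at 450, 375 and 396 CPM in IgG1 PC, at 428, 359 and 363 CPM in D6 and at 356.7, 356.7 and 362 CPM in IgE PC. IgE iGC lay above all other groups, D6 overlapped both PC groups, and the first IgG1 PC library reached the IgG1 iGC level. In the plasma cell step Csk fell in IgE by 0.44 on the log2 scale (SE 0.07, edgeR adjusted p = 6.30e-05), and its change of -0.14 in IgG1 (SE 0.07, adjusted p = 0.106) did not pass the test, although DESeq2 called it (-0.16, adjusted p = 0.0483).

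The smaller Csk differences rested on single libraries and settings. The PC difference of -0.18 (SE 0.07, edgeR adjusted p = 0.0422) was -0.10 (adjusted p = 0.167) without the first IgG1 PC library, and it also missed the threshold under 5 other settings and without any 1 of 4 other PC libraries. Without that first IgG1 PC library the IgG1 step was called, at -0.22 (adjusted p = 0.00699). The interaction of -0.30 (SE 0.10, adjusted p = 0.0276) missed the threshold without any 1 of 8 libraries, with adjusted p from 0.0505 to 0.0625 (all libraries of IgE PC and IgG1 iGC, and the first and second of IgE iGC), and with immunoglobulin genes left out of the scaling (-0.25, adjusted p = 0.0601).

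**Figure D2:**
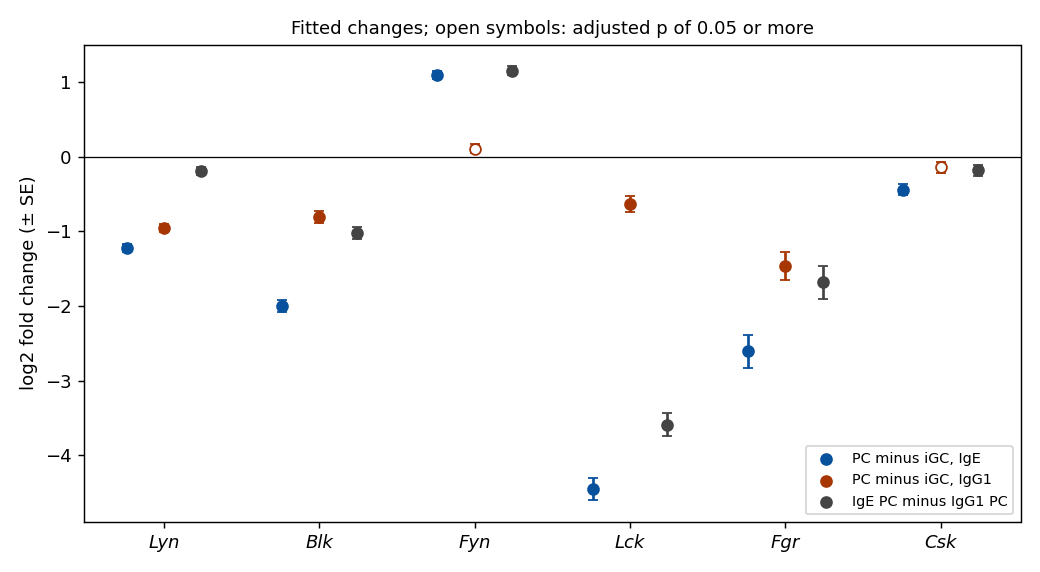
Fitted log2 fold changes with standard errors for the plasma cell step in IgE, the plasma cell step in IgG1, and IgE PC minus IgG1 PC (15 libraries in 1 edgeR fit). Filled points had an adjusted p under 0.05 and open points did not; Fyn lies above 0 in the IgE step and between the PC groups, and Lck lies farthest below 0.

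Within the IgE cells, then, 1 member rose and 5 fell from iGC to PC, where 64.1% of all genes tested were called, 30.5% upward and 33.6% downward. Within the IgG1 cells none rose and 4 fell, where 59.1% of all genes were called, 30.1% upward and 29% downward. The interaction, which tests whether the step differed between the isotypes, was called for all 6 members (1 positive, 5 negative) and for 42.9% of all genes, 19.8% positive and 23.1% negative. B cell and germinal centre markers moved with the falls of Lyn, Blk, Lck and Fgr: in the IgE step 5 of 5 B cell markers and 6 of 6 germinal centre markers fell, and in the IgG1 step 4 of 5 and 6 of 6. Summed germinal centre markers were 454 to 489 TPM in IgE iGC, 383 to 395 in IgG1 iGC, 60.95 to 102.5 in IgG1 PC and 43.7 to 45.9 in IgE PC. Their part in the result was not tested, and fewer cells of a type cannot be told apart from less RNA per cell in such bulk libraries.

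Between IgE iGC and IgG1 iGC no member was called in the fit of all 5 groups, where 3.87% of all genes were called, 1.99% higher and 1.88% lower in IgE. The largest of these differences was that of Fgr, at -0.53 (SE 0.18, edgeR adjusted p = 0.145), and those of Fyn (0.16, SE 0.06, adjusted p = 0.160) and Blk (0.17, SE 0.08, adjusted p = 0.338) were the next by p. At an unadjusted p under 0.05 there were 2 members, Fgr and Fyn, and DESeq2 called 1, Fyn (adjusted p = 0.0392). With only the 2 iGC groups in the fit Blk, Fyn and Fgr were called (adjusted p = 0.0154, 0.0390 and 0.0140). Lck was the one member whose libraries overlapped between these groups. The share of all genes that overlapped was not counted, so this sets no member apart.

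Against the day 6 culture, the iGC groups held more RNA of most members. In IgE iGC 5 members rose and none fell (69.1% of all genes were called, 32.8% higher and 36.3% lower): Blk rose 2.501-fold, Fgr 2.32-fold, Lyn 1.52-fold, Lck 1.43-fold and Csk 1.27-fold. In IgG1 iGC 5 rose and 1 fell (68.4% of all genes were called, 32.4% higher and 36% lower), with Fgr 3.36-fold and Blk 2.23-fold higher. Fyn, the exception, changed by -0.01 in IgE iGC (SE 0.06, edgeR adjusted p = 0.888) and fell by 0.17 in IgG1 iGC (SE 0.06, adjusted p = 0.0146). The smaller IgG1 iGC calls were each lost without some single library: Fyn without D6 replicate 1 (-0.13, adjusted p = 0.0835) or IgG1 iGC replicate 2 or 3 (adjusted p = 0.0847 and 0.0530), Lck (0.30) without D6 replicate 1 or 3 or IgG1 iGC replicate 1 (adjusted p = 0.0762, 0.0606 and 0.109), and Csk (0.23) without D6 replicate 2 or 3 (adjusted p = 0.0620 and 0.0547).

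In IgE PC against D6, 1 member rose and 4 fell, where 76.4% of all genes were called, 36.9% higher and 39.5% lower. Fyn was 2.12-fold higher, and Lck was 15.2-fold, Fgr 2.62-fold, Blk 1.60-fold and Lyn 1.53-fold lower. In IgG1 PC against D6, 1 rose and 2 fell, where 71.9% of all genes were called, 35.9% higher and 36% lower. Blk was 1.28-fold higher (edgeR adjusted p = 9.15e-04, but 0.08 on the log2 scale with adjusted p = 0.515 by total counts), Lyn was 1.34-fold and Lck 1.27-fold lower. Fgr differed by 0.29 (SE 0.19, adjusted p = 0.189), and by 0.49 (adjusted p = 0.0146) without the first IgG1 PC library.

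Summed feeder cell markers separated D6 from the sorted groups in the same comparisons. Their sum over 9 genes was 92.4 to 157 TPM in D6 and at most 46.8 TPM in any sorted library. It was 15.4 to 46.8 TPM in IgG1 PC and 4.74 to 8.39 in IgE PC, and 7 of the 8 feeder markers tested were lower in IgE PC than in IgG1 PC. Against D6, 6 of the 8 were called lower in IgE iGC, in IgG1 iGC and in IgE PC, but 3 in IgG1 PC, and none was called higher. Their part in the D6 and PC differences of the 6 members was not tested.

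Per transcript length, the mix of the 5 kinases differed by group. In the iGC groups Blk was the largest part of their summed TPM, 43.8% ± 0.144 in IgE and 42.7% ± 1.62 in IgG1 (SD, n = 3). In D6 and IgG1 PC it was Fyn, at 44.9% ± 0.514 and 45.1% ± 4.19. In IgE PC Fyn alone made 74.5% ± 1.36, with Blk at 13.4% ± 1.497 and Lyn at 11.8% ± 0.177. The lowest and highest Fyn shares were 73.0% and 75.6% among IgE PC libraries and 28.1% and 49.96% among all others, so IgE PC did not overlap with them. Lck made 2.16% to 3.12% of the sum on average in 4 groups and 0.205% ± 0.0773 in IgE PC, and Fgr made less than 1% in every group.

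**Figure D3:**
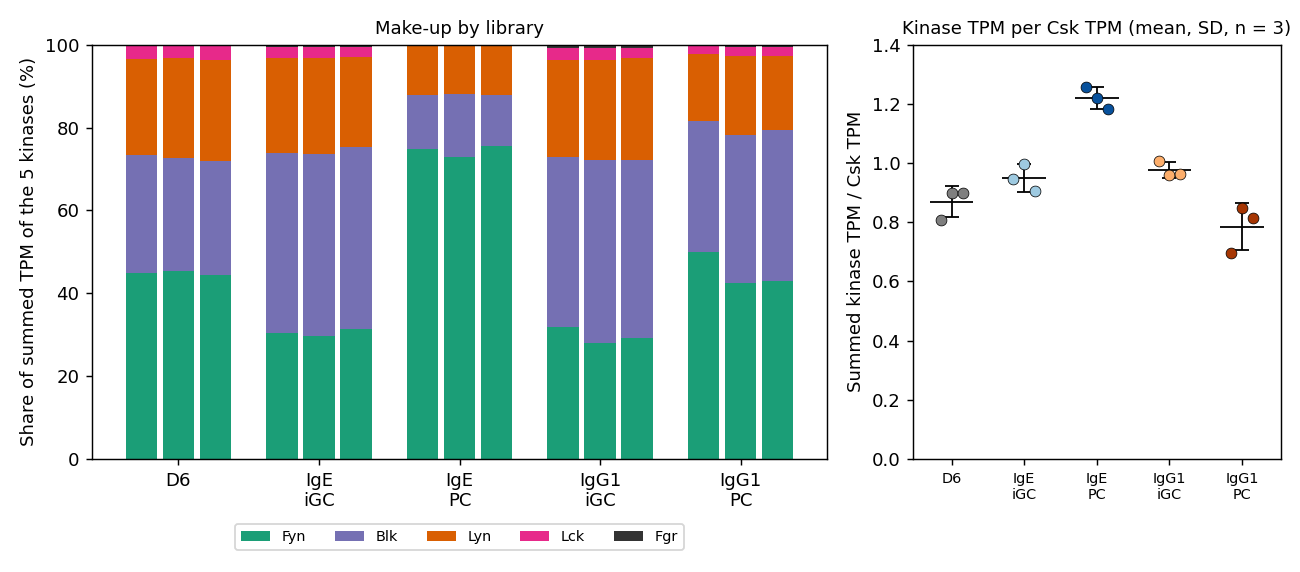
Left, share of each kinase in the summed TPM of Lyn, Blk, Fyn, Lck and Fgr, 1 bar per library in the order of its replicate number. Right, that sum divided by the TPM of Csk, with points for libraries and group mean and SD (n = 3); IgE PC libraries lie at 1.18 to 1.26 and all others at or below 1.01.

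The summed TPM of the 5 kinases, a scale that the immunoglobulin share lowers in plasma cells, did not go in step with Csk. The sum was 463 ± 9.66 TPM in IgE iGC, 429 ± 3.29 in IgG1 iGC, 324 ± 9.92 in D6, 228 ± 11.1 in IgE PC and 200.5 ± 27.4 in IgG1 PC (SD, n = 3). Csk was at 488.5 ± 26.9, 439.8 ± 8.55, 374 ± 33.8, 187 ± 4.13 and 255 ± 10.6 TPM in the same order. The 2 PC groups overlapped in the kinase sum and not in Csk. By CPM the order differed: the 5 kinases summed to 648 ± 12.8 CPM in IgE PC, above D6 (504.5 ± 20.3) and IgG1 PC (490.4 ± 12.8) and below IgE iGC (772 ± 6.36) and IgG1 iGC (704 ± 3.60). Csk was at 487 ± 9.65 CPM in IgE iGC and 359 ± 3.33 in IgE PC (SD, n = 3), a smaller fall than in TPM. The ratio of the sum to Csk was 1.26, 1.22 and 1.18 in IgE PC and 0.695, 0.848 and 0.813 in IgG1 PC. The iGC and D6 libraries lay between, at 0.809 to 1.01 with an overlap with IgG1 PC. No test was made of shares or ratios, and neither measures kinase activity.

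Other kinases of the same type were scarce next to Lyn, Blk and Fyn. Yes1 was above Fgr in mean TPM in every group, and in IgE PC also above Lck (3.64 against 0.473 TPM). Src and Yes1, relatives with the same tail tyrosine, were at or below 6.89 and 5.56 TPM in every group mean. Of 5 other Src-type kinases tested (Src, Yes1, Frk, Ptk6 and Srms), 1 was called between the PC groups: Yes1 was 1.77-fold higher in IgE PC (edgeR adjusted p = 1.19e-05). Yes1 rose in the IgE step by 0.59 (SE 0.11), with an interaction of 0.78 (SE 0.16, adjusted p = 9.64e-04), and so differed in the same direction as Fyn. In the IgE step 2 of 5 rose and none fell, and in the IgG1 step 1 of 5 rose and none fell. The number called was 2 between the PC groups without IgG1 PC replicate 1, 1 in the IgE step by total counts, and 2 in the IgG1 step by total counts or without IgG1 iGC replicate 2 or IgG1 PC replicate 2. The list's median PC difference was 0.21, beside -0.05 for all genes.

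Genes that act on the tail tyrosine or work with Csk moved in both directions. The list held Matk, a relative of Csk, the membrane adaptors Pag1, Lime1 and Sit1, and the phosphatases Ptpn22, Ptprc, Ptprj, Ptpra and Ptpre. Between the PC groups 3 of 9 were higher in IgE PC and 4 were lower. Ptpn22, which works with Csk and dephosphorylates the active site of these kinases, was 1.47-fold higher (edgeR adjusted p = 1.11e-05), and Ptpre, a receptor phosphatase, was 1.39-fold higher (adjusted p = 1.24e-05). Lime1 was 1.20-fold lower (adjusted p = 0.00623), with fractional counts in 14 libraries. The list's median was -0.07, near that of all genes.

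From iGC to PC, 3 of these 9 genes rose and 5 fell in IgE, and 2 rose and 5 fell in IgG1. Ptpre rose 3.02-fold in IgE and 2.305-fold in IgG1, and Ptpn22 rose 2.42-fold and 1.35-fold. Pag1, the adaptor that brings Csk to the membrane, fell 3.05-fold in IgE and 2.77-fold in IgG1, from 200.4 ± 8.95 to 65.6 ± 2.70 CPM and from 190.1 ± 7.74 to 68.4 ± 25.6 CPM (SD, n = 3). Sit1 fell 2.63-fold in IgE and Ptprj 2.496-fold in IgG1. The interaction was called for 5 of 9, among them Ptpn22 (0.85, SE 0.11) and Ptpre (0.39, SE 0.09) upward and Sit1 (-0.84, SE 0.16) downward. Between the iGC groups Sit1 was higher in IgE (0.45), and Ptprj (-1.50) and Ptpn22 (-0.29) were lower, the 3 genes called. Only 1 gene of the list was called there by total counts, and likewise without any 1 of the iGC libraries other than IgE iGC replicate 3.

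Receptors that carry tyrosine motifs for these kinases fell in both isotypes. The list holds 9 genes, of which Cd79a, Cd79b and Cd22 are also among the B cell markers. In the IgE step 9 of 9 fell, with a median of -1.55 beside -0.08 for all genes, and in the IgG1 step 8 of 9 fell, with a median of -1.08. Between the PC groups 6 of 9 were lower in IgE PC and none was higher. Cd72, an inhibitory receptor of B cells, was at 177 ± 2.52 CPM in IgE iGC and 4.76 ± 0.974 CPM in IgE PC, and at 134 ± 10.01 and 63.2 ± 8.04 CPM in the IgG1 groups (SD, n = 3). Its PC difference was 13.2-fold (edgeR adjusted p = 3.19e-11), close in size to that of Lck. Pirb, another inhibitory receptor, was 7.22-fold lower in IgE PC, with fractional counts in all 15 libraries. Cr2, a complement receptor of B cells, had the largest fall of the list in the IgG1 step, 4.98-fold.

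Adaptors and effectors downstream were mixed. Between the PC groups 4 of 17 were higher in IgE PC and 5 were lower, with a median of -0.02. Bank1, an adaptor that binds Lyn, was 2.88-fold lower and Syk, the kinase that docks on phosphorylated receptor motifs, 2.12-fold lower, while Dapp1 was 1.22-fold and Btk 1.123-fold higher. In the IgE step 1 of 17 rose and 11 fell, with Bank1 down 9.12-fold, Ptpn6, the phosphatase SHP-1, down 2.81-fold and the adaptor Blnk up 1.27-fold. In the IgG1 step 2 of 17 rose (Dok3 and Blnk) and 13 fell, with Bank1 down 3.96-fold and Cblb, a ubiquitin ligase, down 2.27-fold. Syk was already lower in IgE iGC than in IgG1 iGC, by 0.75 on the log2 scale (SE 0.06, edgeR adjusted p = 6.19e-06).

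**Figure D4:**
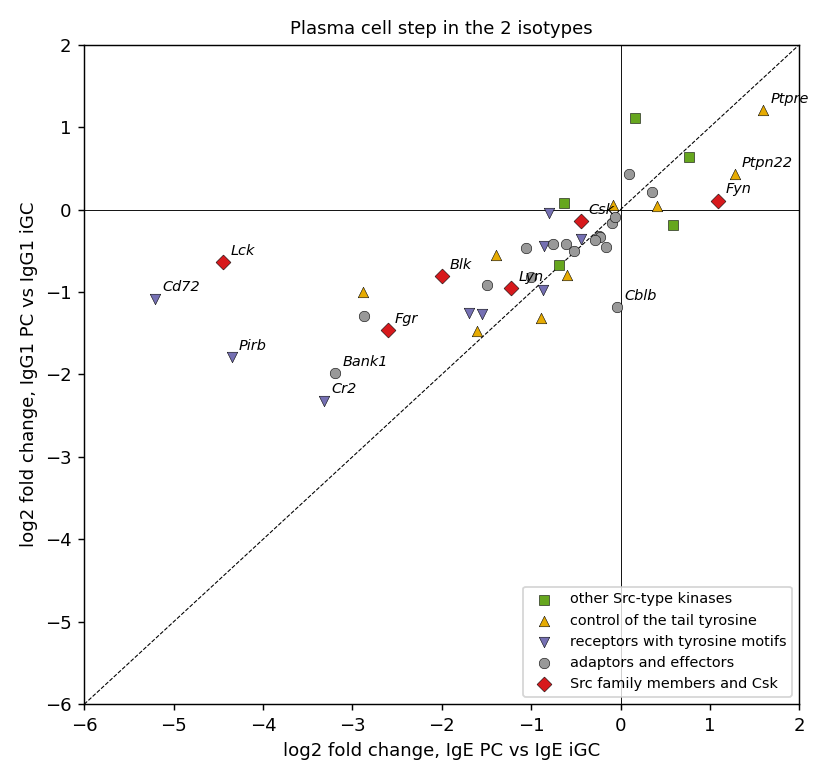
Log2 fold change from iGC to PC in IgE (horizontal axis) and in IgG1 (vertical axis) for the 6 members and 40 other genes in 4 lists; the dashed line marks equal change. Lck, Cd72, Pirb, Blk and Fgr lie above the line on the left (a larger fall in IgE), and Fyn lies below the line on the right.

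The members did not share 1 pattern across the 15 libraries. In log2 CPM, Pearson's r was 0.95 between Blk and Fgr and 0.90 between Lyn and Blk, and -0.97 between Fyn and Lck. The 15 libraries fall into 5 groups, so these values describe group means more than libraries. Neighbours were sought among 8919 genes with at least 10 CPM in some group. Left out of these were immunoglobulin, T cell receptor and microRNA genes, genes without a symbol and genes with provisional names such as Gm numbers. The closest to Lyn were Cd180 (r = 0.995), Herc3 and Sh2b3, and those closest to Blk were Evl (0.996), Gimap3 and Gpr137b. Those closest to Fyn were Stk40 (0.991), Cebpg and Mettl7a1, each at its highest in IgE PC. Stk40 was at 157 CPM there and at 72.0 to 76.0 CPM in the other group means.

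The genes closest to Lck were Chaf1b (r = 0.996), Pold1 (0.991) and Mcm2 (0.990), which act in DNA replication and chromatin assembly. Chaf1b was at 5.51 CPM in IgE PC and at 23.4 to 31.6 CPM in the other group means. Those closest to Fgr were Bcl7a (0.990), Nlrc3 and Pfkfb4. Csk had no neighbour as close: its highest was Lrwd1 at 0.946, followed by Sirt7 and Clic1. Ranked by Spearman's rho, 2 of 3 neighbours stayed among the top 3 for Fyn and for Fgr and none for the other 4 members.

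Promoter windows, from 250 bases before to 50 after a RefSeq start (GRCm38.p6), were found for 4 of the 6 members, Fyn, Lck, Fgr and Csk, with 2 starts each for Lck and Csk. Those of Fyn and Lck are shown because these genes went in opposite directions in IgE PC. They were searched on both strands for a GC box (GGGCGG), an E-box (CAGGTG), an octamer (ATGCAAAT), ETS-type letters (CCGGAAG and GAGGAAGT), NFAT-type letters (TGGAAA) and a CRE (TGACGTCA), and matches are in capitals. The first window lies at chr10:39369549-39369848 on the plus strand, the next at chr4:129573592-129573891 and the last at chr4:129558323-129558622, both on the minus strand.
Fyn: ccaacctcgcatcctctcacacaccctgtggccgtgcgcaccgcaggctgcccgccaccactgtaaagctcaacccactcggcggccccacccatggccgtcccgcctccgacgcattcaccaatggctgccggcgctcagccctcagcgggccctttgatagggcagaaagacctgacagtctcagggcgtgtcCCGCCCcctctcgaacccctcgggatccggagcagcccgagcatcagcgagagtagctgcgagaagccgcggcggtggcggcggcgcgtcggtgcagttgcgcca
Lck, upstream start: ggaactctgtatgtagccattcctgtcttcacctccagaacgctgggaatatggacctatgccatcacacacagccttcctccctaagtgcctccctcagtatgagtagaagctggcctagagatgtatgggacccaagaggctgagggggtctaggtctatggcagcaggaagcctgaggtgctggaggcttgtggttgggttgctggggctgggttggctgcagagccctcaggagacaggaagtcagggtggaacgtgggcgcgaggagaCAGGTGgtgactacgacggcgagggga
Lck, downstream start: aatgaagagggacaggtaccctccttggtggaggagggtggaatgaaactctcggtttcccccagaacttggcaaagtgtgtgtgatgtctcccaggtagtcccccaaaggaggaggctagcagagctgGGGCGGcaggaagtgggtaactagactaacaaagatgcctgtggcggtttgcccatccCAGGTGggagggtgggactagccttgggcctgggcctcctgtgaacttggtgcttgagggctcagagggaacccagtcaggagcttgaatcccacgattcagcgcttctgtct

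The Fyn window held a GC box on the opposite strand, at -55 to -50 from the start. Of the Lck windows, the upstream one held an E-box at +23 to +28, and the downstream one a GC box at -121 to -116 and an E-box at -63 to -58. These letters are common: of 32851 such windows, 35.7% held the GC box and 20.2% the E-box. None of the exact octamer, ETS-type, NFAT-type or CRE letters searched was found in these 3 windows. Variants of these letters were not searched, so their absence does not show that such sites are lacking. Of all windows 1.74% held the octamer, 8.86% the first and 3.2% the second ETS-type letters, 21.4% the NFAT-type letters and 1.79% the CRE. The counts are per gene, so they do not tell the Lck starts apart.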

How the data were processed

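RNA-seq libraries were made from polyA RNA with the KAPA mRNA HyperPrep kit and sequenced strand-specifically from 1 end over 76 bp, as the labels' protocols state. The deposited table gives RSEM expected counts and TPM per Ensembl gene for 15 libraries. Per the submitters' processing notes, the tools included cutadapt 1.9.1, STAR 2.5.2a, RSEM 1.3.0 and DESeq2 1.12.3, with build GRCm38; their settings are not given in the sources used here. The TPM values made by the authors with RSEM are relative to all transcripts and were used to compare genes, to sum markers and kinases, and beside CPM for some group levels.

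Gene symbols and coordinates came from GENCODE vM21 (GRCm38), which named 51633 of 51912 identifiers. Expected counts deposited by the authors were rounded to whole numbers, which at least 90.9% of values in each library, zeros included, already were. Genes were kept by filterByExpr in edgeR 4.0.16 (R 4.3.3; minimum count 10, minimum total 15), which left 15692. Libraries were scaled by TMM and tested with the quasi-likelihood test (robust, 5 group means, 10 residual degrees of freedom), p-values were adjusted by Benjamini-Hochberg over all genes tested, and an adjusted p under 0.05 was called. The p-values set each difference against the spread between these libraries within groups, estimated over all 5 groups with information shared across genes. Alternatives were DESeq2 1.42.0, other scalings, no filter, only the groups compared, a replicate block and leaving out each library.

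The members and lists were chosen with earlier results of these data known. Some genes of the pathway and marker lists are not reported here and were taken out of the list counts, medians and sums after the data had been seen. All members are named. In each pathway list up to 2 called genes per direction with the largest change are named, among those with at least 10 CPM in a group compared. For the tail tyrosine list, called genes below that level are also given in the PC comparison. The 3 neighbours of each member are those of highest Pearson r in log2 CPM (prior count 2). In every one of the 15 pairs of libraries within a group, counts differed by more than sampling noise (lowest chi-square per degree of freedom 4.55), so none was taken for a repeat. Coding sequences came from GENCODE and promoter windows from RefSeq. Protein sequences were not used here.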

Additional observations from a re-analysis of the deposited data

Results flagged for a closer look

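The plasma cell step differed between the isotypes, by the interaction term of the edgeR fit, for all 6 members and for 20 of 40 pathway genes, where 42.9% of all genes tested had a called interaction. Among the members, the IgE step minus the IgG1 step on the log2 scale was -3.81 for Lck (adjusted p = 6.88e-09), 0.99 for Fyn (4.01e-07), -1.19 for Blk (1.18e-06), -1.15 for Fgr (0.00475), -0.27 for Lyn (0.0107) and -0.30 for Csk (0.0276).

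Fyn rose in IgE and moved little in IgG1, whereas the other 5 fell further in IgE. Among receptors it was -4.13 for Cd72, -2.57 for Pirb, -1.002 for Cr2, -0.76 for Cd79a, -0.44 for Siglecg and -0.42 for Fcgr2b. Among genes that act on the tail tyrosine or work with Csk it was 0.85 for Ptpn22, 0.39 for Ptpre, 0.37 for Ptpra, -0.84 for Sit1 and -1.88 for Matk. It was 0.78 for Yes1, the Src family relative that differed as Fyn did. Among adaptors and effectors it was -1.59 for Zap70, -1.20 for Bank1, -0.59 for Hcls1, -0.58 for Ptpn6, -0.34 for Dok3, -0.33 for Syk, 1.14 for Cblb and 0.30 for Dapp1. The positive value of Cblb came from a fall in IgG1 (-1.18) with -0.04 in IgE. Among T cell and myeloid markers it was -1.85 for Thy1, 1.81 for Cd28, -3.62 for Lyz2, -1.88 for Itgam and -2.11 for Adgre1. Single libraries were not tested for standing apart, since each group holds 3.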

How the results depend on the processing

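Each member was refitted under every alternative, 738 values in all: 690 kept their direction and side of the threshold, 31 lost the call, 11 gained it and 6 changed sign, 2 of these with a call under the alternative. By total counts Fyn changed by -0.13 from IgG1 iGC to IgG1 PC (adjusted p = 0.0446) and Csk by -0.20 from D6 to IgG1 PC (adjusted p = 0.00826), the 2 called. The near-zero Fyn difference between IgE iGC and D6 (-0.01) became 0.0452 with immunoglobulin genes left out of the scaling and 0.0419 with only those groups, and with 1 library left out it ran from -0.0453 to 0.0349, turning positive without D6 replicate 1 (0.0349) or IgE iGC replicate 2 (0.0306). By total counts Csk gained a call from D6 to IgE PC (-0.63) and from IgG1 iGC to IgG1 PC (-0.38), and Fyn from D6 to IgG1 PC (-0.35). The cause was not tested. The calls of Fyn, Lck, Blk and Fgr between the PC groups held under every alternative run.

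Between the iGC groups 607 genes were called, 1503 with only those groups in the fit (593 of them shared), 937 by DESeq2 and 323 to 403 with 1 library left out, which has fewer samples. Members called there were 0, against 3 with only those groups and 1 by DESeq2. By total counts, higher and lower calls moved from 4788 and 5270 to 2651 and 8743 in the IgE step, from 4720 and 4553 to 3226 and 6840 in the IgG1 step, from 3101 and 3632 to 1542 and 5603 for the interaction, from 5792 and 6191 to 3311 and 9032 in IgE PC against D6, and from 5636 and 5645 to 3964 and 7370 in IgG1 PC against D6.

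With Src and Yes1 in the sum, an alternative set after seeing the data in place of a planned wider sum that was not run, the D6 shares of Lyn, Blk and Fyn were 22.9%, 26.8% and 43.2%, that of Blk in IgE iGC 43.3%, and those of Lyn and Fyn in IgE PC 11.5% and 72.9%. Of 492 alternative counts of called pathway genes, 20 moved by over 1.5 times, all from counts of 3 or fewer.

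Libraries with the same replicate number did not deviate together: over 30 pairs, deviations from the group means correlated at -0.20 to 0.09, none over 0.1. With 3 libraries a group, this cannot tell whether a number marks a shared culture or animal. A replicate block in the fit gave 9005 called genes between the PC groups, 580 between the iGC groups and 6533 for the interaction. The block left the numbers of members called at 6, 0 and 6 there. The counts of Lck and Fgr in IgE PC (15 to 25 per library) limit the precision of their fold changes.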
